A study of Homo sapiens with 12 samples.

Results

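The SMN complex carries, beside SMN itself, the Gemin proteins and UNRIP, and the mRNAs of 8 of these partners were followed in neurons depleted of SMN. They were taken by gene symbol, whatever their values: *GEMIN2*, *DDX20* (Gemin3), *GEMIN4*, *GEMIN5*, *GEMIN6*, *GEMIN7*, *GEMIN8* and *STRAP* (UNRIP). All 8 were listed in both expression tables, among 16406 genes of the iMN table and 19016 of the i3N table, and each symbol matched 1 Ensembl identifier. Loss of SMN is known to lower several Gemin proteins, and the comparison gives the level of their mRNAs.

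RNA-seq, which counts sequenced RNA fragments per gene, was run on 12 libraries in 4 groups of 3. Induced motor neurons (iMNs) were made from 1 human induced pluripotent stem cell line in which the HB9 promoter drives Td-Tomato, and were sorted on that reporter. i3Ns, labelled cortical neurons, were made by NGN2 induction from H1, an established human embryonic stem cell line. In each cell type, *SMN*-KD neurons carried an shRNA against *SMN1* and *SMN2* and SCR neurons a scrambled shRNA, both delivered by lentivirus and switched on with doxycycline, and RNA was taken after 12 days of knockdown. Cell type, stem cell line and differentiation protocol differ together and cannot be told apart, and nothing in the labels says whether the 3 libraries of a group came from separate cultures, so p-values may measure technical spread only.

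The SMN complex builds the cores of spliceosomal small nuclear ribonucleoproteins (snRNPs), the particles that carry out pre-mRNA splicing. In the cytoplasm it takes Sm proteins from the methylosome and closes them as a ring around a small nuclear RNA. Gemin5 recognizes the RNA, Gemin2 holds the Sm proteins and binds SMN, Gemin3 is a DEAD-box helicase bound to Gemin4, and Gemin6, Gemin7, Gemin8 and UNRIP form a further module in which Gemin8 links the others to SMN. Too little SMN causes spinal muscular atrophy, a disease of motor neurons.

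The values come from the authors' deposited DESeq2 tables, which hold no values per library. The mean normalized count is a gene's mean over the 6 libraries of its table after scaling for depth, and the mean of each group was derived from it and the fold change. Fold changes are given on the log2 scale, positive where *SMN*-KD neurons were higher, each with the standard error (SE) of the fit to 3 libraries per group. A gene was called changed at an adjusted p under 0.01 and a DEG when its absolute log2 fold change was also above 1. The sum over the 5 identifiers of *SMN1* and *SMN2* fell by 77.9% in iMNs and by 82.7% in i3Ns. These sums rest on fold changes that appear shrunken toward 0. Not every identifier was called lower. ENSG00000273772 (*SMN2*) was called in neither cell type, with log2 fold changes of 0.008 in iMNs and 0.04 in i3Ns at means of 51.9 and 16.3. ENSG00000277773 (*SMN2*, -0.10) in iMNs and ENSG00000275349 (*SMN1*, -0.18) in i3Ns were also not called, and the others were lower. For these 2, the log2 fold changes that the p-values and standard errors imply were -0.70 and -0.75.

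The labels were set against marker genes, side by side only, since the tables were normalized separately. In the iMN table the motor neuron factors *MNX1* (HB9), *ISL1* and *LHX3* had mean normalized counts of 430, 1663 and 15.1, and in the other table, of i3Ns, they had 2279, 14299 and 230. The factors *ISL2* and *LHX4* had 70.6 and 1040 in iMNs and 3558 and 7819 in i3Ns. These motor neuron factors thus stood higher in the cells labelled cortical. Other motor neuron markers went the opposite way: the choline transporter *SLC5A7* had 8460 in iMNs and 2472 in i3Ns, and the vesicular acetylcholine transporter *SLC18A3* 3115 and 1865. *CHAT*, the enzyme that makes acetylcholine, was near equal at 533 and 527, and *SLC17A7*, a vesicular glutamate transporter, stood at 50.1 and 6490. Of the other glutamatergic markers, *SLC17A6* had 593 and 11237, *CUX2* 1734 and 2033, and *POU3F2* 1792 and 2672. Of the glial markers, *GFAP*, *AQP4* and *SOX10* were listed in neither table, while *MBP* had 329 in iMNs and 949 in i3Ns, and *OLIG2* 20.7 and 362.

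The 8 mRNAs changed little. In iMNs, 2 of 8 were called changed and higher, *GEMIN5* and *STRAP*, where 17.1% of all genes were, and 0 of 8 were lower, where 18.7% were. In i3Ns, 4 of 8 were called higher, *DDX20*, *GEMIN4*, *GEMIN5* and *STRAP*, where 22.8% of all genes were. There 1 of 8, *GEMIN7*, was lower, where 25.7% were. All 8 had means of at least 100 in both cell types. Among genes with such means, 21.7% were higher and 23.6% lower in iMNs, and 32.0% and 33.3% in i3Ns. At an unadjusted DESeq2 p under 0.05, 4 of 8 were higher in iMNs and 0 of 8 lower, beside 24.3% and 24.8% of all genes. In i3Ns 4 of 8 were higher and 2 of 8 lower, *GEMIN6* and *GEMIN7*, beside 28.2% and 30.4%. None of the 8 was a DEG in either cell type, where 3.34% and 13.8% of all genes were. *GEMIN5* and *STRAP*, 2 of 8, were called higher in both cell types, where 11.0% of the 16093 genes in both tables were. In bulk RNA, fewer cells of a type and less RNA per cell cannot be told apart.

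Over the 8 genes, the 95% intervals from the deposited standard errors reached from -0.25 to 0.48 in iMNs and from -0.60 to 0.50 in i3Ns on the log2 scale. A log2 fold change of 1 in either direction, the threshold for a DEG, lay outside every interval. The intervals rest on fold changes that appear shrunken toward 0. They may hold technical spread only, so they need not bound the change across separate cultures. The median log2 fold change of the 8 was 0.14 in both cell types, beside medians over all genes of 0.001 in iMNs and 0.01 in i3Ns. The coefficient of variation between libraries that the standard errors imply had a median of 7.30% in iMNs and 6.75% in i3Ns. It was widest for *GEMIN8* in i3Ns, at 13.0%. This is a model value from standard errors that appear shrunken, not a spread measured over libraries. With the standard errors doubled, 0 of 8 were called in either cell type, where 12.3% of all genes in iMNs and 25.0% in i3Ns still were.

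**Figure D1:**
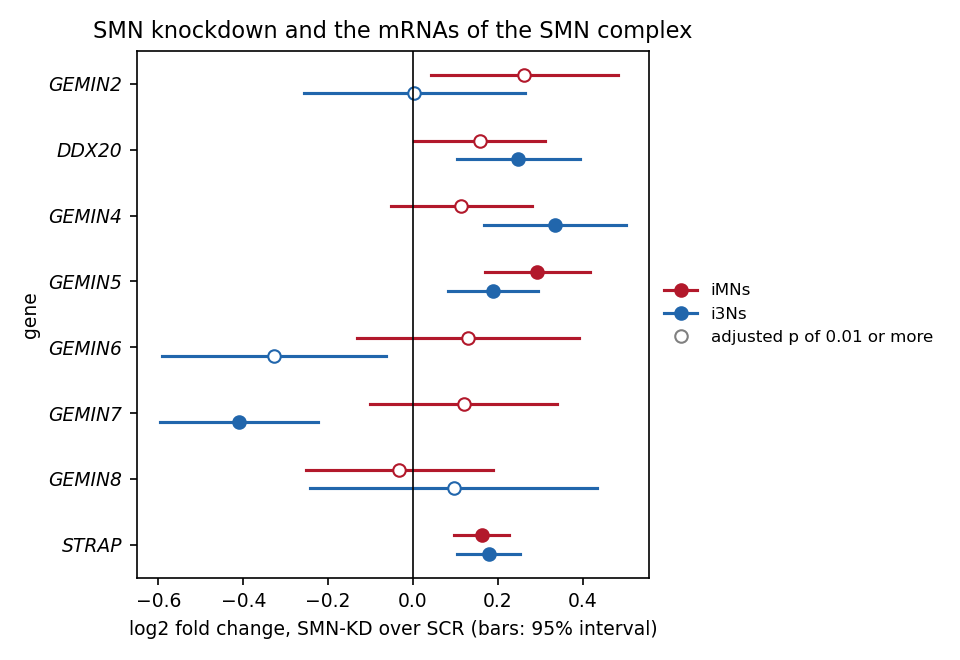
Log2 fold change, *SMN*-KD over SCR (x axis), for each of the 8 genes (y axis) in iMNs and i3Ns. Points are the deposited estimates and bars their 95% intervals, with open points for an adjusted p of 0.01 or more. *STRAP* and *GEMIN5* lie above 0 with filled points in both cell types, and *GEMIN7* is the filled point below 0, at -0.41 in i3Ns.

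By level, *STRAP* stood far above the rest. Levels between genes were compared as the mean normalized count per kilobase of the MANE Select transcript, the reference mRNA. In iMNs *STRAP* had 8017 per kilobase, 22.4 times the next gene, followed by *GEMIN2* (358), *GEMIN5* (344), *GEMIN7* (325), *DDX20* (265), *GEMIN4* (214), *GEMIN8* (157) and *GEMIN6* (99.0). The neighbours *GEMIN2* and *GEMIN5*, and *GEMIN5* and *GEMIN7*, did not differ beyond the 95% interval that the implied spread between libraries gives. In i3Ns *STRAP* had 5453 per kilobase, 12 times the next, followed by *GEMIN5* (453), *DDX20* (405), *GEMIN7* (391), *GEMIN2* (324), *GEMIN4* (273), *GEMIN6* (148) and *GEMIN8* (69.1). There, *DDX20* and *GEMIN7* did not differ beyond this interval. The interval rests on the same model value and not on a measured spread.

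Apart from *STRAP*, the levels spanned 3.62 times in iMNs and 6.55 times in i3Ns. *GEMIN8* and *GEMIN6* were the lowest pair in both cell types, in opposite order. The order rests on the transcript chosen: with the longest annotated transcript *DDX20* had 129 per kilobase in iMNs and 197 in i3Ns, since its count was then spread over more bases. UNRIP also works outside the SMN complex, and the table gives its total mRNA.

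**Figure D2:**
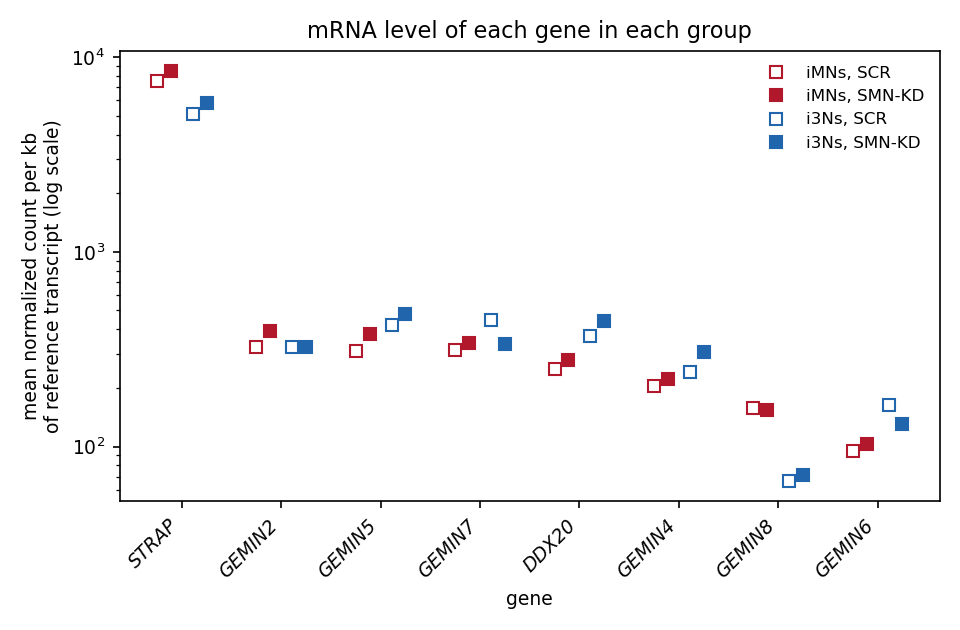
Mean normalized count per kilobase of the reference transcript (y axis, log scale) for each gene (x axis) in the 4 groups, SCR as open and *SMN*-KD as filled squares. The group means were derived from the 6-library mean and the fold change and carry no error bar. *STRAP* sits highest in every group, at 5115 or more, and the other 7 genes reach at most 482, with *GEMIN6* and *GEMIN8* lowest.

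*GEMIN5* encodes the subunit that reads the small nuclear RNA. It lies at chr5:154887411-154938211 on the minus strand (GRCh38, 28 exons). In iMNs its derived mean normalized count was 1673 in SCR and 2049 in *SMN*-KD, a rise of 22.5% (log2 fold change 0.29, SE 0.063, DESeq2 adjusted p = 9.05e-06). In i3Ns it was 2286 and 2606, a rise of 14.0% (0.19, SE 0.054, adjusted p = 0.00101). The rises differed by -0.10 on the log2 scale between i3Ns and iMNs (95% interval -0.27 to 0.06, adjusted p = 0.339), which is within the error.

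*GEMIN2* encodes the SMN-binding protein that cradles the Sm proteins and lies at chr14:39114285-39136973 on the plus strand (10 exons). It was not called in either cell type. In iMNs its mean was 430 in SCR and 516 in *SMN*-KD (log2 fold change 0.26, 95% interval 0.04 to 0.48, DESeq2 adjusted p = 0.0270). In i3Ns it was 427 and 428 (0.0028, 95% interval -0.26 to 0.26, adjusted p = 0.989). The difference between the cell types, -0.26, had a 95% interval from -0.60 to 0.08 and did not pass (adjusted p = 0.239).

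*DDX20*, the helicase Gemin3, lies at chr1:111754832-111775602 on the plus strand (11 exons), and *GEMIN4*, its binding partner, at chr17:744421-753999 on the minus strand (2 exons). Both rose in i3Ns. *DDX20* went from a mean of 1334 to 1585, a rise of 18.8% (log2 fold change 0.25, SE 0.074, DESeq2 adjusted p = 0.00153), and *GEMIN4* from 904 to 1140, a rise of 26.1% (0.33, SE 0.085, adjusted p = 0.000183). In iMNs the means were 903 and 1008 for *DDX20* (0.16, SE 0.079, adjusted p = 0.0785) and 770 and 833 for *GEMIN4* (0.11, SE 0.085, adjusted p = 0.263). Neither difference between the cell types passed the test: it was 0.09 (95% interval -0.12 to 0.30) for *DDX20* and 0.22 (95% interval -0.01 to 0.46) for *GEMIN4*, with adjusted p of 0.555 and 0.132.

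*GEMIN6* and *GEMIN7* encode Sm-like proteins that bind each other. *GEMIN7* lies at chr19:45079195-45091518 on the plus strand (3 exons). In i3Ns it fell by 24.8%, from 737 to 554 (log2 fold change -0.41, SE 0.095, DESeq2 adjusted p = 3.17e-05). In iMNs it stood at 515 and 559 (0.12, SE 0.113, adjusted p = 0.375). *GEMIN7* was the 1 member of 8 whose change differed between the cell types, by -0.53 (SE 0.147, 95% interval -0.82 to -0.24, adjusted p = 0.00118), where 34.0% of all genes differed.

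*GEMIN6* lies at chr2:38751534-38785002 on the plus strand (3 exons) and was not called in either cell type. Its mean was 609 in SCR and 485 in *SMN*-KD i3Ns (log2 fold change -0.33, 95% interval -0.59 to -0.06, DESeq2 adjusted p = 0.0244) and 350 and 383 in iMNs (0.13, 95% interval -0.13 to 0.39, adjusted p = 0.402). The difference of -0.46 had a 95% interval from -0.83 to -0.09 and an adjusted p of 0.0391, above the threshold.

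*GEMIN8*, the link from this module to SMN, lies at chrX:14006726-14029893 on the minus strand (5 exons). Its mean was 499 in SCR and 488 in *SMN*-KD iMNs (log2 fold change -0.03, SE 0.112, DESeq2 adjusted p = 0.840) and 210 and 225 in i3Ns (0.10, SE 0.172, adjusted p = 0.665). The difference between the cell types was 0.13 (95% interval -0.28 to 0.53). With a mean near 217 in i3Ns, *GEMIN8* had the widest interval of the 8, from -0.24 to 0.43 on the log2 scale. A change could go uncalled there, inside this interval or somewhat beyond it. Its pseudogene *GEMIN8P4* was listed at means of 21.5 in iMNs and 30.2 in i3Ns, and how the quantification split reads between such copies was not examined.

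*STRAP*, the gene of UNRIP, lies at chr12:15882387-15903478 on the plus strand (10 exons). Its mean was 14183 in SCR and 15864 in *SMN*-KD iMNs, a rise of 11.9% (log2 fold change 0.16, SE 0.033, DESeq2 adjusted p = 5.88e-06). In i3Ns it was 9586 and 10852, a rise of 13.2% (0.18, SE 0.038, adjusted p = 6.63e-06). These were the smallest changes called among the 8 and the most precisely measured. The difference between the cell types was 0.02 (95% interval -0.08 to 0.12), the narrowest interval of the 8.

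**Figure D3:**
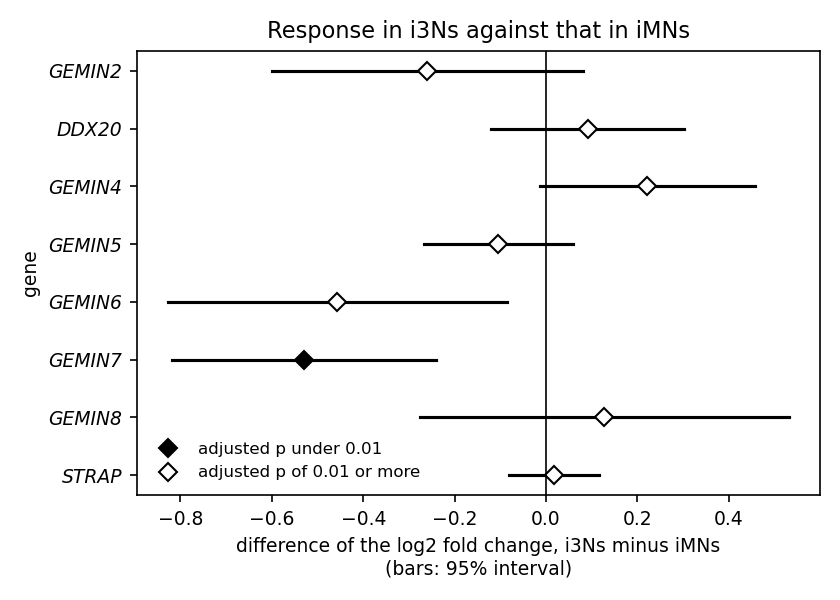
Difference of the log2 fold change, i3Ns minus iMNs (x axis), for each gene (y axis), with 95% intervals. *GEMIN7*, at -0.53, is the filled point with an adjusted p under 0.01. The interval of *GEMIN6* also lies below 0, and those of the other 6 genes cross 0.

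*GEMIN7* shares exon bases with other genes, the only one of the 8 whose reference transcript does. Of its 1653 bases, 1412 (85.4%) are covered on the opposite strand by the noncoding RNA *GEMIN7-AS1*, which neither table listed. On the same strand, 103 bases (6.23%) are shared with *PPP1R37* and 90 (5.44%) with *MARK4*. *PPP1R37* had a log2 fold change of -0.34 (SE 0.048) in iMNs and -0.79 (SE 0.051) in i3Ns, and *MARK4* -0.27 (SE 0.048) and -0.52 (SE 0.039). Whether the quantification used strand is not given in the sources used here, and the part of these neighbours in the values of *GEMIN7* was not tested.

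A short hairpin RNA can also lower mRNAs that pair with the seed of its guide strand, bases 2 to 8. The target of the *SMN* shRNA lies in coding exon 4 of 9 of *SMN1* (chr5:70942517-70942537) and of *SMN2* (chr5:70067093-70067113) on the plus strand. It is shown with the stretch that pairs with guide bases 3 to 9 in capitals. That stretch was looked for in the members, and none of the 8 held it. The overlapping CTAATAA, also in the target, was looked for as well.
SMN1 and SMN2 target: atctgtgaagtaGCTAATAat

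The 3′-UTRs of the reference transcripts were searched on the sense strand for CTAATAA and GCTAATA, which overlap by 6 bases. They pair with guide bases 2 to 8 and 3 to 9 if the guide is the exact reverse complement of the target. That was assumed for both shRNAs, and the processing of the hairpins was not measured. Of the 8, *GEMIN6* and *GEMIN8* held a match, in each case to CTAATAA only. Among genes with a reference 3′-UTR and a mean of 100 or more, 20.0% of 11854 in iMNs and 20.0% of 11903 in i3Ns held one. Over these genes the median log2 fold change was -0.17 with and 0.04 without a match in iMNs, and -0.21 and 0.05 in i3Ns. For CTAATAA alone, 11.0% of these genes held a match in each cell type. The median log2 fold change was then -0.10 with and 0.02 without it in iMNs, and -0.14 and 0.02 in i3Ns. The same search for the scrambled guide used CTAGTAA for bases 2 to 8 and ACTAGTA for bases 3 to 9. It found *GEMIN7*, which held both, beside 12.2% of these genes in each cell type. Median log2 fold changes were 0.08 with and -0.001 without that match in iMNs and 0.19 and -0.01 in i3Ns. Windows of 27 bases are shown with the 7 bases CTAATAA or CTAGTAA in capitals.
GEMIN6, plus strand, chr2:38783699-38783725: gcatagttgtCTAATAAcaagatggta
GEMIN6, plus strand, chr2:38783823-38783849: gcatagttgtCTAATAAcaagatggta
GEMIN8, minus strand, chrX:14008289-14008315: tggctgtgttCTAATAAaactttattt
GEMIN7, plus strand, chr19:45091387-45091413, scrambled guide: cctcctatcaCTAGTAAcctttcagcg

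Both windows of *GEMIN6* read the same. They begin 124 bases apart and lie in a stretch of 42 identical bases, a short repeat within its 3′-UTR of 3110 bases, the longest of the 8. Beside the matches to the *SMN* guide stand the log2 fold changes of *GEMIN6*, 0.13 in iMNs and -0.33 in i3Ns. Those of *GEMIN8* were -0.03 and 0.10, and none of these was called. *GEMIN7*, which matched the scrambled guide, had 0.12 in iMNs, not called, and -0.41 in i3Ns, called lower. A match is a description of letters in the reference. Its part in any value was not tested.

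The genes were also examined for introns of the minor class, which the U11 and U12 snRNPs remove and which often start with ATATCCT or GTATCCT. Of the 64 introns of the 8 reference transcripts, 0 started with either motif, where 4.15% of 13728 genes held such an intron.

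In i3Ns, markers of other cells moved with the knockdown, and so did those of neurons. The summed mean normalized count of proliferation markers went from 1931 in SCR to 359 in *SMN*-KD with 4 of 4 lower, that of mesenchymal markers from 8832 to 1009 with 3 of 5 lower and 1 higher, and that of *MBP* and *OLIG2* from 1911 to 712 with both lower. The pluripotency markers went from 1600 to 6917, through *LIN28A*. In iMNs the proliferation markers summed to 208 and 217 with none of the 3 listed called, and the mesenchymal markers to 1444 and 2661 with 2 of the 4 listed higher. Neuronal markers fell as well. In i3Ns 6 of 8 motor neuron, 4 of 4 glutamatergic and 3 of 5 general neuron markers were lower. In iMNs these were 5 of 8, 2 of 4 and 4 of 5. In each cell type 1 motor neuron marker was higher, and in iMNs 1 general neuron marker. Of all genes, 22.8% were higher and 25.7% lower in i3Ns, and 17.1% and 18.7% in iMNs. The part of these marker shifts in the values of the 8 genes was not tested.

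Against the Gemins and UNRIP stood 23 other genes of snRNP assembly, some of which moved much further. In iMNs 9 of 23 were called higher and 4 lower, with a median log2 fold change of 0.10, beside the 17.1% and 18.7% of all genes. In i3Ns 5 were higher and 6 lower, with a median of 0.02, beside 22.8% and 25.7%. DEGs were 2 of 23 in iMNs, *SNRPN* and *LSM11*, beside 3.34% of all genes. In i3Ns they were 3 of 23, these and *SNRPD3*, beside 13.8%.

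*SNRPN*, which encodes the Sm protein SmN found mainly in brain, fell from 20372 to 3803 in iMNs (log2 fold change -2.42, SE 0.047) and from 8893 to 2641 in i3Ns (-1.75, SE 0.040), both with a DESeq2 adjusted p listed as 0. *SNRPD3*, the Sm protein SmD3, had a log2 fold change of -0.78 (SE 0.046, adjusted p = 1.19e-62) in iMNs and -1.07 (SE 0.051, adjusted p = 1.76e-95) in i3Ns. The 3′-UTR of *SNRPN* held CTAATAA and GCTAATA, the matches to the *SMN* guide, and none to the scrambled guide. That of *SNRPD3* held 1 match to each guide. Among the 8 Sm protein genes, 3 were higher and 2 lower in iMNs, beside 17.1% and 18.7% of all genes. In i3Ns 1 was higher and 4 lower, beside 22.8% and 25.7%.

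*LSM11*, an Sm-like protein of the U7 snRNP that processes histone mRNAs, rose from 2056 to 6202 in iMNs (log2 fold change 1.59, SE 0.062, DESeq2 adjusted p = 3.56e-143) and from 768 to 2718 in i3Ns (1.82, SE 0.071, adjusted p = 1.24e-143). Its 3′-UTR held 1 match to the *SMN* guide and 2 to the scrambled guide. Other genes of the assembly list not named here also held a match to the *SMN* guide, and *SNRPB* and *RIOK1* held none. The part of the matches in any value was not tested. *SNRPB*, the gene of SmB, rose by 0.44 (SE 0.068) and 0.76 (SE 0.056) on the log2 scale. *RIOK1*, a methylosome adaptor, rose by 0.59 (SE 0.076) in iMNs and had 0.02 (SE 0.065) in i3Ns, a difference of -0.57 (Wald z, adjusted p = 1.22e-07). Such a difference was called for 34.0% of all genes, and *RIOK1* was not alone in the list. *SNRPN* (0.67), *SNRPD3* (-0.29), *SNRPB* (0.32) and further genes of it also passed, and *LSM11* (0.23, adjusted p = 0.0376) did not. Of the 5 methylosome genes, 4 were higher and 0 lower in iMNs, beside 17.1% and 18.7% of all genes. In i3Ns 2 were higher and 1 lower, beside 22.8% and 25.7%.

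**Figure D4:**
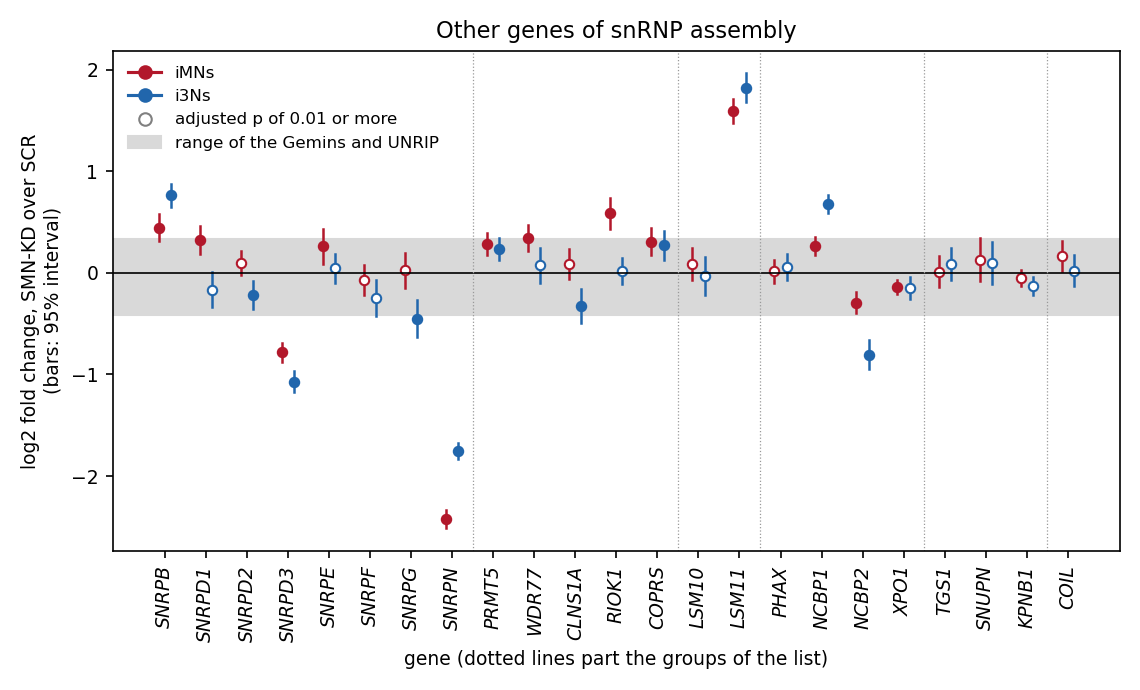
Log2 fold change, *SMN*-KD over SCR (y axis), for 23 other snRNP assembly genes (x axis, grouped by role) in iMNs and i3Ns, with 95% intervals and open points for an adjusted p of 0.01 or more. The grey band spans the values of the 8 Gemin and UNRIP genes, -0.41 to 0.33. *SNRPN* and *SNRPD3* lie below it, and *LSM11* and *SNRPB* above it, in both cell types.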

How the data were processed

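Per the labels, ribosomal RNA-depleted libraries were processed with fastp, Salmon, STAR and DESeq2 on hg38. The authors deposited 1 DESeq2 table per cell type. The mean normalized count deposited by the authors is a signal: Salmon counts scaled for depth by DESeq2, averaged over the 6 libraries of a table. The deposited log2 fold changes and their log2 standard errors appear shrunken, which the sources do not state, and the deposited p-values are Wald tests with Benjamini-Hochberg adjustment. These comparison columns were used as deposited, since no values per library were analysed here. Depth per library is therefore unknown, and no count test could be run.

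The 8 genes and all lists were chosen with earlier results of these data known. Named were all members, *SMN1*, *SMN2*, DEGs and the 2 highest and 2 lowest called genes of the assembly list per table, and the 3 nearest genes. Of the assembly list, 1 gene is not reported here and was left out of its counts. The gene pair overlapping *GEMIN7* and single markers were named after their values were seen. Group means were derived from mean and fold change (3 libraries each), with no group error. Intervals are 1.96 SE. Changes between cell types were compared by a two-sided Wald z over 16093 genes with Benjamini-Hochberg adjustment. The calculation was run on values simulated without shrinkage from the deposited standard errors. That checks the calculation only and cannot show how the test behaves on shrunken estimates. Reference: GENCODE 44 on hg38. Python 3.11.15, pandas 2.3.3 and scipy 1.17.1 were used.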

Additional observations from a re-analysis of the deposited data

Results flagged for a closer look

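*GEMIN7* was singled out because its log2 fold change differed between the cell types by a test of the difference itself. The i3N value minus the iMN value was -0.53 (SE 0.147, Wald z, Benjamini-Hochberg adjusted p = 0.00118), from -0.41 in i3Ns and 0.12 in iMNs. Such a difference was called for 34.0% of the 16093 genes in both tables.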

How the results depend on the processing

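No paired analysis was possible because the deposited tables carry no values per library, and for the same reason no library could be left out and no block fitted. With the standard errors doubled, the genes of the 8 called fell to 0 in each direction and cell type, and 0 differed between cell types, where 9.90% of all genes did. Of the 23 assembly genes, 3 were then higher and 2 lower in iMNs, beside 4.57% and 7.77% of all genes. In i3Ns 3 were higher and 3 lower, beside 11.0% and 14.0%. With Bonferroni adjustment, 0 of 8 were called in either cell type, beside 18.9% of all genes in iMNs and 31.5% in i3Ns. At an adjusted p under 0.001, 2 of 8 were higher in i3Ns, beside 19.6%. At an adjusted p under 0.05, 2 of 8 were lower in i3Ns, beside 28.9%, and 2 differed between cell types, beside 42.4%, with *GEMIN6* added in both. After centring on the median of all genes, the log2 fold change of *GEMIN2* in i3Ns was -0.0100 and so changed sign, within its error. Fold changes rebuilt from the p-values, matches to the scrambled guide and the shares for CTAATAA alone were added after seeing the data. The rebuilt fold changes left 1 of 8 differing. The other 46 summary values kept their direction and call or stayed within 1.5 times of their count.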

Other observations

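In all, 6958 genes had means of 1000 or more normalized counts in each table. The 3 of them whose pair of log2 fold changes lay nearest the members' medians (Euclidean distance over the 2 cell types) were *MAN1B1* (0.15 in iMNs and 0.14 in i3Ns), *STYX* (0.14 and 0.13) and *CBX8* (0.14 and 0.13). A distance of 0.1 took in 382 genes, so these 3 are close to many others.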
